A study of Drosophila melanogaster with 2 samples.

Results

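The loci of 10 basic leucine zipper (bZIP) transcription factor genes were examined for binding of Atf-2, itself one of the 10. The genes were chosen by name, as Atf-2, Atf3, Atf6, Xbp1, crc, CrebA, CrebB, cnc, Irbp18 and REPTOR, and make up 10 of the 13945 protein-coding genes annotated on the chromosomes used. Every region whose summit lay within the annotated gene or within 5 kb of either end was counted for that gene. Chromatin immunoprecipitation and sequencing (ChIP-seq) was performed with an antibody to GFP on whole embryos of Drosophila melanogaster of both sexes, aged 0 to 24 h, from a single stable transgenic line that makes Atf-2 with enhanced GFP fused to its C-terminus. The sample labels also list Atf-2 as the antibody, while their description of the immunoprecipitation names the antibody to GFP. The 2 biological replicates, numbered 2 and 3, form the only group, so no treatment, genotype or time could be compared. The promoter that drives the fusion protein is not given in the sources used here, and signals from whole embryos average over all their cell types.

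bZIP factors bind DNA as dimers: a basic region contacts the DNA and a leucine zipper joins the partners, which may be alike or different. Many recognise sites built around the letters ACGT, of which the cAMP response element (CRE), TGACGTCA, is the classic one bound by relatives of Atf-2 and CREB. In flies the family carries much of the transcriptional response to stress. Atf-2 acts downstream of the p38 kinases, Atf6 and Xbp1 serve the unfolded protein response of the endoplasmic reticulum, crc is the fly ATF4 of the integrated stress response, cnc directs the response to oxidants, and REPTOR is held in check by TOR signalling.

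Atf-2-GFP was found at 8 of the 10 genes, and at 7 of them close to a transcription start site (TSS). The peaks used were those that the authors kept by irreproducible discovery rate (IDR), a measure of how alike 2 replicates rank the same regions. Each region carries a signal, a unitless value from the authors' peak caller that is used here to rank and describe it. By signal, the IDR list was the top of the pooled list, which joins both replicates. Its smallest signal and the largest pooled signal outside it were both 84.6. Being in or out of the IDR list thus followed the pooled signal. It does not show how well the replicates agreed on that region, so their values are given for the summits described. The 8 genes with an IDR summit inside the gene or within 5 kb were Atf-2, Atf3, Xbp1, CrebA, CrebB, cnc, Irbp18 and REPTOR, against 39.2% of all protein-coding genes. The 7 with a summit within 500 bp of one of their TSSs were the same genes without CrebB, against 14.9% of all protein-coding genes. Genes with more TSSs have more places to be counted, and cnc (10 TSSs) and REPTOR (4) were counted through inner ones. With the outermost TSS alone, 5 members had such a summit, against 13.1% of all protein-coding genes. The summits counted for Irbp18 were nearer to TSSs of its neighbour APP-BP1 and cannot be assigned to Irbp18 alone. The list of genes was drawn up with earlier results of these data known, so the excess over these backgrounds carries no test. Longer genes have longer windows: an IDR summit lay in 35.1% of windows under 15 kb, which include those of Atf-2, Xbp1 and Irbp18, in 49.9% of windows of 15 to 30 kb, and in 55.6% of longer ones, which include those of Atf3, cnc and REPTOR. Of the 4 members with windows of 15 to 30 kb, 2 had an IDR summit, CrebA and CrebB, which is near that background. Atf6 and crc had none.

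**Figure D1:**
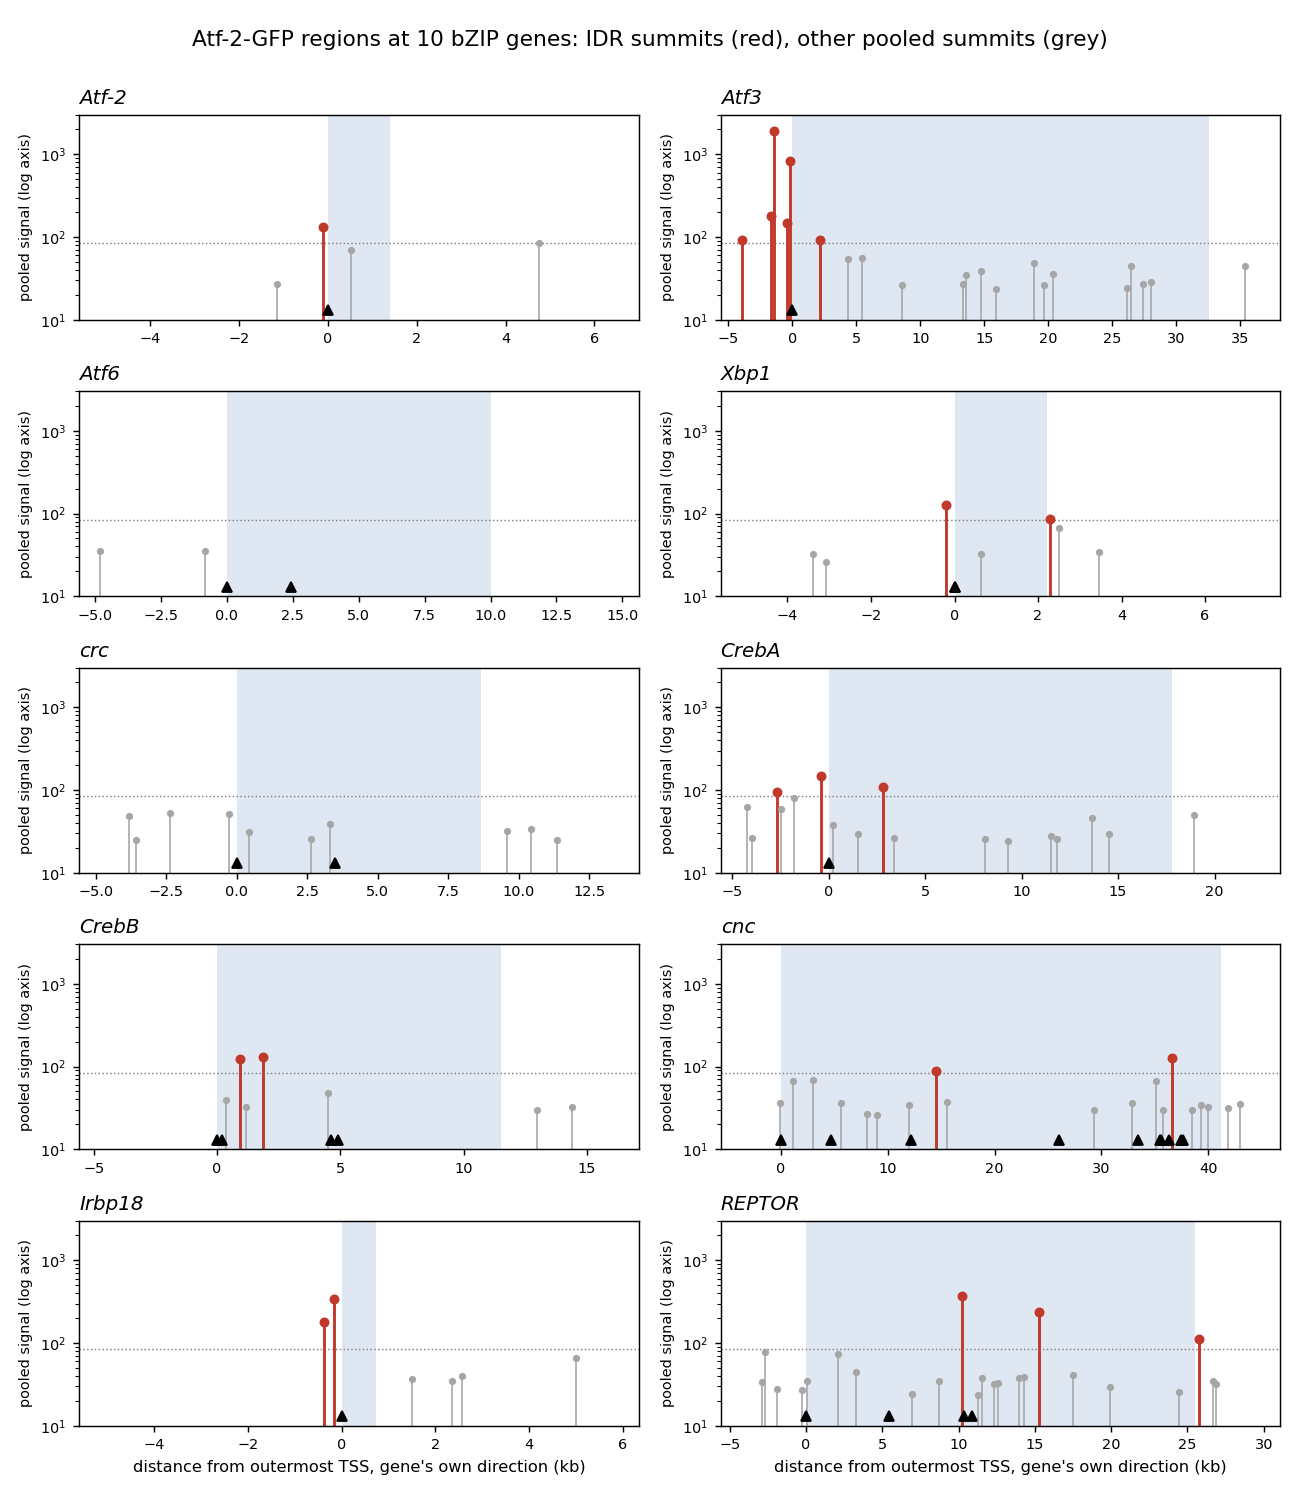
Summits of the pooled list at each of the 10 genes, drawn by distance from the gene's outermost TSS in its own direction of transcription (x, kb) against the pooled signal (y, log axis). Red marks summits of the IDR list, grey the other pooled summits, triangles the annotated TSSs, shading the gene, and the dotted line the smallest IDR signal, 84.6. Atf3 carries 6 red summits around its start, the strongest at 1913, while Atf6 and crc carry none.

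In all, 21 IDR summits in 19 intervals fell in the windows of the 8 genes, and 9 of them lay within 500 bp of a TSS of the gene. The sequences around 10 of them are printed first. They show 4 promoter summits, the strongest upstream site of Atf3, the intronic sites of REPTOR and CrebB, and a pair of weak upstream sites of Atf3 and CrebA that hold the half-site TGACG. Each run holds 75 bases on either side of the summit on the plus strand of build dm6 (Release 6 sequence), and capitals mark every match to the motifs listed after them.
Atf3, strongest upstream summit, chrX:1276665-1276815: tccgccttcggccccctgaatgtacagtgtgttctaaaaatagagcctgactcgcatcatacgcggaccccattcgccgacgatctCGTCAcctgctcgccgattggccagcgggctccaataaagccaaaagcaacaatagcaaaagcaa
Atf3, promoter summit, chrX:1275382-1275532: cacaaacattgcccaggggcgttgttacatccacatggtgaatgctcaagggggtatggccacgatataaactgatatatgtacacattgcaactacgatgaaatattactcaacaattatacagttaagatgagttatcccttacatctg
Atf3, farthest upstream summit, chrX:1279120-1279270: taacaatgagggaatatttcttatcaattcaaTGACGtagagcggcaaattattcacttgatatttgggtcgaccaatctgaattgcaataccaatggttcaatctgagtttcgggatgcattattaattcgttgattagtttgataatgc
REPTOR, promoter summit, chr3R:24572557-24572707: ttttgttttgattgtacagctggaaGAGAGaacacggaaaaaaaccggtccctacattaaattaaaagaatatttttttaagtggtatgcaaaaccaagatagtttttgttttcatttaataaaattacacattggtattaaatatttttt
REPTOR, intronic summit, chr3R:24567511-24567661: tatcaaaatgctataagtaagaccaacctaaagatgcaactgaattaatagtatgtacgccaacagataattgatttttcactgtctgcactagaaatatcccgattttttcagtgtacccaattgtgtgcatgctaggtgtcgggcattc
CrebA, promoter summit, chr3L:15534899-15535049: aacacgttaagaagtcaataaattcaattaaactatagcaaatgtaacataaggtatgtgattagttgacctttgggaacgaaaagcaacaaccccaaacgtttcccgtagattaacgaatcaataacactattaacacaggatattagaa
CrebA, upstream summit, chr3L:15532661-15532811: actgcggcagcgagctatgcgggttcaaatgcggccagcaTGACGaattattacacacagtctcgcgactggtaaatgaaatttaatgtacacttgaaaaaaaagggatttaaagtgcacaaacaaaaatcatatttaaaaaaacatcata
CrebB, stronger intronic summit, chrX:18368147-18368297: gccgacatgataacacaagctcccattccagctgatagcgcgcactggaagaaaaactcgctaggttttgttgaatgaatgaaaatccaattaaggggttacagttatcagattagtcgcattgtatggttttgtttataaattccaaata
CrebB, other intronic summit, chrX:18367192-18367342: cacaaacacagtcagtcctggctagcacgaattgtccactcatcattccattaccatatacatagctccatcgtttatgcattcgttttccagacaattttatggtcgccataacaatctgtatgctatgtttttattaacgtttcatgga
cnc, promoter summit, chr3R:23190040-23190190: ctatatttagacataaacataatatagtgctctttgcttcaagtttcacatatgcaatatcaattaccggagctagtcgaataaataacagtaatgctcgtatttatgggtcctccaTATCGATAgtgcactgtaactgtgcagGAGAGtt

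A CRE was present in 0 of the 21 windows of 100 bp on either side of the summits. It was in 0.490% of the windows at all IDR summits and in 0.275% of windows of the same length at all annotated TSSs of protein-coding genes. With sites this rare everywhere, 0 of 21 marks no contrast with the other peaks. Motifs were sought on both strands. Of 7 bZIP sites, namely the CRE, its variant TGACGTAA, the AP-1 site TGANTCA, TGATGCAA (the CEBP-ATF site), TGACNNNGC (bound by cnc with Maf partners), TGACGTGG (bound by Xbp1) and TTACGTAA, a single match was found, to TGANTCA at the downstream summit of Xbp1. That is 1 window of 21, or 4.76%, against 11.7% of all IDR windows and 11.4% of promoter windows with at least one of the 7. With so few windows no contrast is drawn from this. The count was 0 with 50 bp on either side of the summits and 3 with 250 bp. CACGTG was in 0 of the 21, against 2.24% of all IDR windows.

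The half-site TGACG, added after these sequences had been seen, lay in 4 of the 21 windows (19.0%), against 13.5% of IDR windows and 19.2% of promoter windows. It was found 13 bp from the strongest Atf3 summit, where the plus strand reads CGTCA, at the farthest upstream Atf3 summit, upstream of CrebA, and downstream of Xbp1. In none of the 4 did it form part of one of the longer bZIP sites. Among sites of promoter factors, the DRE TATCGATA (bound by DREF) lay 45 bp from the promoter summit of cnc and the M1BP site GGTCACACT 40 bp from that of Xbp1, each 1 window of 21, against 3.74% and 1.32% of all IDR windows. GAGAG, the core bound by GAGA factor, was in 4 windows (19.0%) at CrebA, cnc and REPTOR, against 22.8% of all IDR windows. The 8-mers CACAGTGG and CACTGAGA, rarer in promoter windows (0.826% and 0.649%), were in 0 of the 21, against 5.05% and 4.10% of all IDR windows, and the Zelda site CAGGTAG in 0, against 0.735%.

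Atf-2 had 1 IDR summit, just upstream of its own single TSS. The gene lies on chromosome 2R at 24870108 to 24871509 on the plus strand, and the peak spans 24869782 to 24870217. Its summit at 24870000 was 108 bp upstream of the TSS in intergenic sequence. Its signal was 134 in the pooled list (rank 1569), 76.3 in replicate 2 (rank 2021) and 56.6 in replicate 3 (rank 1174). Replicate summits lay at the IDR summit and 2 bp from it. The ratio of replicate 2 to replicate 3 was 1.35, and only 13.7% of IDR peaks had a lower one. A pooled region over the coding exon, with its summit 528 bp past the TSS, had a signal of 69.9 (rank 4310) and was not in the IDR list. Just below that list's smallest signal of 84.6 was a region of 84.2 (rank 3282) near the end of the window, in the 5′ UTR of CG16896 and 60 bp from its TSS.

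Atf3 held the largest group, 6 IDR summits in 4 intervals around its start. Atf3 is a stress-responsive bZIP factor and lies on chromosome X at 1242740 to 1275284 on the minus strand, with 3 transcripts that share 1 TSS. Of all protein-coding genes, 35 (0.251%), Atf3 included, had at least as many IDR summits in their windows. At least 4 summits, the number of intervals at Atf3, were in the windows of 230 genes (1.65%). Neither share takes the length of the window into account. Its strongest summit, at 1276740 and 1456 bp upstream of the TSS, had signals of 1913 pooled (rank 2), 1022 in replicate 2 (rank 4), and 885 in replicate 3, the strongest region there (rank 1). The replicate 2 to replicate 3 ratio there was 1.15, and 6.39% of IDR peaks had a lower one. Its interval, 1276464 to 1277342, spanned 879 bp and was the widest of the 3255 distinct IDR intervals, whose median was 436 bp. A second summit in the same interval, at 1276946, had a signal of 178 (rank 957).

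The promoter interval of Atf3, 1275279 to 1275732, also carried a pair of summits. The one 173 bp upstream of the TSS, at 1275457, had signals of 841 pooled (rank 30), 560.2 in replicate 2 (rank 30) and 280.0 in replicate 3 (rank 32). Both replicates thus placed it at almost the same rank. The one 398 bp upstream, at 1275682, had 149 pooled (rank 1328) and overlapped the same replicate regions. The remaining summits were weak. An intronic one 2184 bp downstream of the TSS, at 1273100, had 93.3 pooled, 58.7 in replicate 2 and 34.1 in replicate 3, and one 3911 bp upstream, at 1279195, had 91.0 pooled, 56.1 in replicate 2 and 31.7 in replicate 3. No protein-coding TSS was closer than that of Atf3 to any of the 6. Farther into the gene lay 12 intronic pooled regions and 2 over coding exons, none in the IDR list and none above 55.3.

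Of the genes of the unfolded protein response, Xbp1 was bound at its start and Atf6 had no IDR peak. Xbp1 is activated when the kinase and nuclease Ire1 splices its mRNA, and lies on chromosome 2R at 21143545 to 21145750 on the plus strand. Its promoter summit, at 21143349 and 196 bp upstream of the TSS, had signals of 126 pooled (rank 1736), 88.1 in replicate 2 (rank 1628) and 38.7 in replicate 3 (rank 2385). A weaker summit just past the end of the gene, at 21145840, had 86.8 pooled (rank 3139), 53.7 in replicate 2 and 36.8 in replicate 3. It was nearer to the TSS of the neighbour Hmg-2, at 363 bp, than to any of Xbp1.

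Atf6, a membrane protein that is cleaved in the Golgi to free its bZIP domain, lies on 2R at 5144733 to 5154756 on the plus strand. Its window held 2 pooled regions, both upstream of the gene, with signals of 35.7 (rank 13785) and 35.3 (rank 14086). The first overlapped a region of 26.6 in replicate 2 and none in replicate 3, and the second regions of 17.8 in replicate 2 and 16.0 in replicate 3. Replicate 3 alone had a region 193 bp downstream of a TSS, with a signal of 14.5 (rank 19537). All of these stood far down lists of 30000 regions each, which include background.

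Of the pair of the integrated stress response, Irbp18 had IDR summits in its window, all nearer to a TSS of a neighbour, and crc had none. crc is translated more when eIF2alpha is phosphorylated, and Irbp18 is a bZIP partner of it. Irbp18 lies on chromosome 3L at 11097446 to 11098186 on the minus strand. Its upstream summit at 11098355, 169 bp from the TSS, had signals of 343 pooled (rank 251), 251 in replicate 2 (rank 205) and 95.0 in replicate 3 (rank 401). A second summit at 11098555, 369 bp upstream, had 179 pooled (rank 947) and overlapped the same region in each replicate. Both sat over neighbouring genes: each in the 3′ UTR of CG33947, and the second also in the 5′ UTR of APP-BP1. The nearest TSSs were different ones of APP-BP1, 57 bp from the first summit and 74 bp from the second. The distance to a TSS alone cannot assign these summits to 1 of the 3 genes.

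The window of crc, on 2L at 21310866 to 21319527 on the plus strand, held 10 pooled regions and 0 IDR summits, with pooled signals from 24.8 to 52.6. The strongest, 52.6 (rank 6689), lay 2382 bp upstream in a coding exon and closer to the TSS of Mondo. The nearest to the crc start, 284 bp upstream, had 50.8 pooled (rank 7102), with rank 5730 in replicate 2 and rank 22735 in replicate 3 (signal 13.5). A region 176 bp upstream of the inner TSS, which crc shares with CG46314, had 39.1 pooled and 42.9 in replicate 2 (rank 4749) and no region in replicate 3. None of the regions at crc came within the 3265 strongest of either replicate, the number of peaks in the IDR list.

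The CREB-type genes CrebA and CrebB were each bound, CrebA at its promoter and CrebB in the first part of its body. CrebA drives genes of the secretory pathway in the fly embryo and lies on 3L at 15535395 to 15553214 on the plus strand. Its promoter summit, at 15534974 and 421 bp upstream of the TSS, had signals of 146 pooled (rank 1374), 109 in replicate 2 (rank 1122) and 39.9 in replicate 3 (rank 2253). An intronic summit 2819 bp downstream, at 15538214, had 109 pooled, 79.4 in replicate 2 and 34.8 in replicate 3. An upstream one at 15532736 had 95.3 pooled, 69.8 in replicate 2 and 24.0 in replicate 3 (rank 6265), and was closer to CG43248, at 1263 bp, than to CrebA, at 2659 bp. Between the upstream and the promoter summit lay a pooled region of 81.0 (rank 3473) that missed the IDR list and ranked 2325 in replicate 3 and 4186 in replicate 2.

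CrebB, the fly CREB factor that responds to cAMP and is best known for its part in memory, lies on X at 18366357 to 18377864 on the plus strand with 4 TSSs. Its summit at 18368222 was intronic, 1661 bp downstream of the nearest TSS, with signals of 129 pooled (rank 1681), 75.7 in replicate 2 (rank 2048) and 52.8 in replicate 3 (rank 1334). Its summit at 18367267, also intronic and 706 bp downstream, had 122 pooled (rank 1830), 87.2 in replicate 2 (rank 1658) and 37.2 in replicate 3 (rank 2578). Which site was stronger thus differed between the replicates. Replicate 3 alone had a region in the 5′ UTR, 150 bp downstream of a TSS, with a signal of 41.2 (rank 2121). Replicate 2 had no region there, and the pooled signal was 38.9 (rank 11666). A region 147 bp upstream of an inner TSS ranked 3331 in replicate 3 (signal 32.4) and 22597 in replicate 2 (signal 18.1).

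cnc, the fly relative of the transcription factor Nrf2, has 10 TSSs on 3R between 23185580 and 23226711 on the minus strand, and was bound at one of the inner ones. The summit at 23190115, 304 bp downstream of the start of transcript cnc-RE and in an intron of longer transcripts, had signals of 126 pooled (rank 1733), 85.9 in replicate 2 (rank 1699) and 37.9 in replicate 3 (rank 2480). An intronic summit at 23212149, 2408 bp downstream of the start of cnc-RL, had 87.6 pooled (rank 3092), 59.9 in replicate 2 and 36.1 in replicate 3. At the outermost TSS replicate 3 had a region of 30.6 (rank 3713) with its summit 37 bp upstream, which overlapped none in replicate 2. The density of IDR summits at cnc, 0.391 per 10 kb, was the lowest of the 8 bound genes.

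REPTOR, which activates genes when TOR activity falls, was bound most strongly at an internal start. The gene lies on 3R at 24557368 to 24582864 on the minus strand with 4 TSSs. The summit at 24572632, 137 bp upstream of the start of REPTOR-RC and within an intron of longer transcripts, had signals of 366 pooled (rank 213), 264 in replicate 2 (rank 177) and 103 in replicate 3 (rank 334). An intronic summit at 24567586 had 234 pooled (rank 564), 167 in replicate 2 (rank 485) and 66.1 in replicate 3 (rank 846). One more lay past the end of the gene at 24557101, 8084 bp from the nearest protein-coding TSS, that of Esyt2. It had 113 pooled (rank 2080), 90.3 in replicate 2 (rank 1554) and only 19.2 in replicate 3 (rank 10464). Its ratio of 4.71 was above that of 98.6% of IDR peaks.

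**Figure D2:**
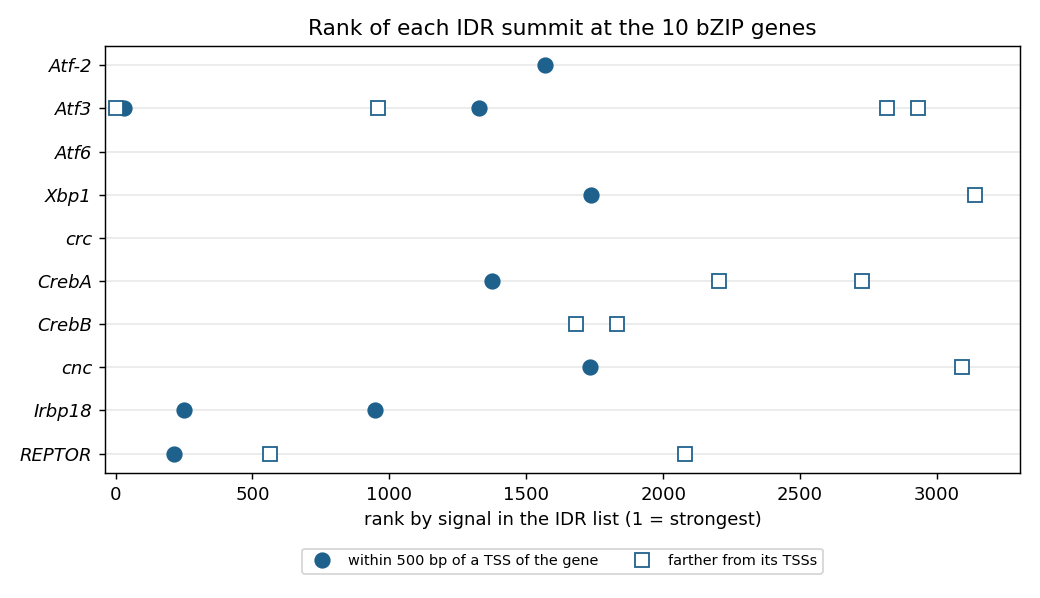
Rank by signal in the IDR list of 3265 peaks (x, 1 is the strongest) for each of the 21 IDR summits at the 10 genes (rows). Filled circles lie within 500 bp of a TSS of the gene and open squares farther away. Atf3, Irbp18 and REPTOR each have a summit among the first 251 ranks, and the promoter summits of Atf-2, Xbp1, CrebA and cnc rank between 1374 and 1736.

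The strongest peaks were in the windows of Atf3, Irbp18 and REPTOR, and those at the other 5 bound genes were of middling to low rank. The 21 summits had signals from 86.8 to 1913 with a median of 129, against a median of 132 over all 3265 IDR summits. Split by rank into 4 equal parts from strongest to weakest, the IDR list held 5, 5, 6 and 5 of them. The first 5 all lay in the windows of those 3 genes. The 10 summits of Atf-2, Xbp1, CrebA, CrebB and cnc ranked from 1374 to 3139 and fell 0, 2, 5 and 3 into the same parts. The 21 summits were dense along the genome, with 0.835 IDR summits per 10 kb in the 10 windows (252 kb in all). The density was 0.364 over the windows of all protein-coding genes, with overlapping windows counted for each gene, and 0.244 over the 134 Mb of the chromosomes. Since the genes were chosen with earlier results of these data known, this excess carries no test either. With Atf3 left out the density was 0.718, from 15 summits. Pooled regions were dense there too, at 4.61 per 10 kb against 2.24 over the chromosomes, and 18.1% of the pooled summits at these genes were IDR summits, against 10.9% of all pooled summits. Of the 21, 11 (52.4%) lay in intergenic sequence and 8 (38.1%) in introns, against 39.0% and 46.6% of all IDR summits, with 1 in a 5′ UTR, 1 in a 3′ UTR and 0 in coding exons. Of the 92 pooled regions in these windows that overlapped no IDR interval, 17 (18.5%) had their summit in a coding exon, against 23.0% of all 25978 such regions.

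The GC content of the windows at the 21 summits had a median of 33.8%, against 36.3% over all IDR summits, and ranged from 26.4% at the intronic Atf3 summit to 53.7% at the strongest one.

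Both replicates had a region that overlapped the interval of each of the 21 summits. The weaker summits of the pairs at Atf3 (1275682 and 1276946) and Irbp18 (11098555) had the same replicate regions as their stronger neighbours. The summits of those regions lay 196 to 225 bp away, and the regions are counted for each summit below. With an overlap of at least 50% in both directions, 21 had a match in replicate 2 and 20 in replicate 3. When each replicate list was cut to its own 3265 strongest regions, 20 of the 21 were still found in replicate 2, 18 in replicate 3 and 17 in each. These are 95.2%, 85.7% and 81.0% of the 21, against 91.0%, 81.2% and 73.2% of all IDR summits. The 4 that did not were the downstream summit of Xbp1 (rank 3437 in replicate 2), the upstream summit of CrebA, the farthest upstream summit of Atf3 (rank 3466 in replicate 3) and the downstream summit of REPTOR. Signals ran higher in replicate 2 than in replicate 3 at all 21, with a median ratio of 2.27 and a range of 1.15 to 4.71, against a median of 1.93 over 3254 IDR peaks with 90% of them between 1.09 and 3.48. Nothing scales one list to the other, and both enter the IDR list, so these figures describe reproducibility and no difference in binding. Of regions that were among the 3265 strongest of 1 replicate but overlapped no IDR interval, 4 lay in the windows, at CG16896 beside Atf-2, upstream of CrebA, in the 5′ UTR of CrebB, and 2666 bp upstream of REPTOR near mld.

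**Figure D3:**
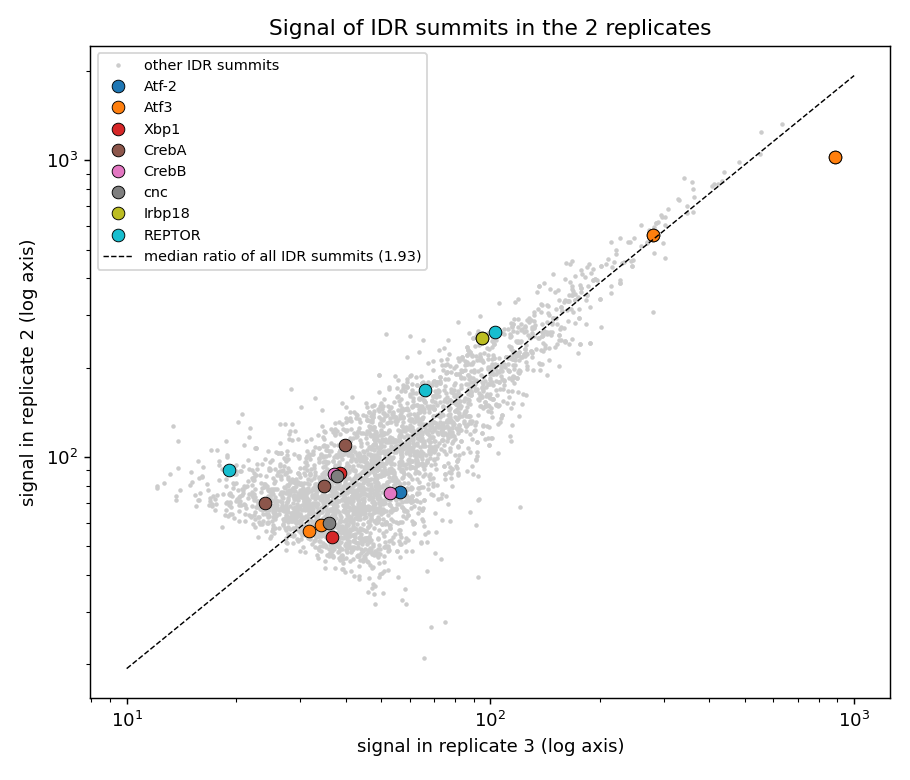
Signal in replicate 3 (x) against signal in replicate 2 (y), both on log axes, for the 3254 IDR summits with a region in both replicates. Coloured points are the summits at the bZIP genes, where a pair of summits that overlap the same regions coincide, grey points all others, and the dashed line the median ratio of 1.93. The strongest Atf3 summit lies at 885 in replicate 3, the highest of all, and below the dashed line, while the downstream REPTOR summit lies at 19.2 and far above it.

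Other genes of the family were bound mostly away from their starts. Of 11 further bZIP genes, 7 had an IDR summit in the window (background 39.2%) and 1, vri, within 500 bp of a TSS (background 14.9%). The 10 genes were chosen with their peaks known, so no contrast between the 2 lists is drawn. slbo, a C/EBP factor of migrating border cells, had a summit of 413, 4528 bp from its TSS, and one of 267 farther off, both within a long noncoding RNA gene. Pdp1 and vri, bZIP factors of the circadian clock, had 4 summits of 93.1 to 253 and 3 of 94.6 to 118, all in introns. kay, the fly Fos, had an intronic summit of 194 that was 1153 bp from a TSS. The summits counted for Jra, the fly Jun (92.2), and for sisA (101), an X-linked element of sex determination, were nearer to TSSs of 14-3-3zeta and Gapvd1. That of Jra differed between replicates, with 26.6 in replicate 2 (rank 10624) and 68.7 in replicate 3 (rank 788). Only 0.0615% of IDR peaks had a ratio of replicate 2 to replicate 3 below its 0.388.

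Among 15 partners and regulators of these factors, 12 had an IDR summit in the window (background 39.2%) and 5 within 500 bp of a TSS (background 14.9%). The 5 were Ire1 (244), the activator of Xbp1, at 172 bp, Keap1 (104), the inhibitor of cnc, at 41 bp, nej (130.1), the CBP coactivator of CREB factors, at 352 bp, p38a (122), at 37 bp, and mTor (139.5), the kinase upstream of REPTOR, at 290 bp. Ire1 and mTor each share the stretch with a neighbour whose TSS was closer, Mrm2 at 147 bp and Vha68-1 at 83 bp. The window of Keap1 also held stronger summits of 267 and 194, in an intron of kuk and nearer to its TSS, at 518 and 722 bp. The strongest summit of nej, 198, lay 634 bp upstream of a TSS. mTor had signals of 127 in replicate 2 and 13.4 in replicate 3. Of the rest, the strong summits in the windows of Gcn2 (1234) and PPP1R15 (908), both of the integrated stress response, were at PNPase and Sox14, with TSSs 86 and 257 bp away. Those of PEK (95.8), S2P (120.5), p38b (116) and Crtc (186) were also closer to another gene, namely RpL35A at 30 bp, Sobp at 96 bp, CG9008 at 1270 bp and CG7484 at 3974 bp in that order, and the summit counted for p38c was that of p38a.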

How the data were processed

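Peak lists on build dm6 were used, each with a summit, a signal and a −log10 q-value per region, per the narrowPeak layout of the deposited files. Per the deposited readme texts, a control entered every peak call, the pooled list joined both replicates, and the IDR list drew on the pooled and replicate lists. Fragments of 200 to 800 bp were selected after sonication, per the labels. Not given in the sources used here are the aligner, the peak caller and the cutoff on the IDR, and the scale of the deposited signal is unknown. The deposited −log10 q-value was tied for all IDR peaks and was not used. Depth is unknown, so no counting interval is given. The dm3 lists were not used.

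Summits were read against the Ensembl release 115 annotation and the Release 6 sequence, counting from 1, with Python 3.11.15, numpy 2.4.6, scipy 1.17.1 and matplotlib 3.10.9. Distances are to the nearest annotated TSS of the gene. Each IDR summit was matched to the replicate region of highest signal that shared at least 1 bp with its interval. Where features of several genes overlapped, UTRs and coding exons took precedence over noncoding exons, and these over introns. Every member is named, whereas other bZIP genes and regulators are named where an IDR summit lay within 5 kb, except 1 further bZIP gene that is counted but not reported here. Neighbours whose TSS was nearer are named for the summits described. No test was made, since there is 1 group. The members, lists and motifs were chosen with earlier results of these data known. Counting functions were tested on simulated data with planted summits and motifs. Alternatives covered other flanks, promoter distances, motif windows, overlaps, the outermost TSS, the 1632 strongest IDR peaks, and the 3265 strongest regions of a single replicate.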

Additional observations from a re-analysis of the deposited data

How the results depend on the processing

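The 8 genes with an IDR summit numbered 8 with flanks of 2 and 10 kb (19 and 26 summits, background 27.6% and 52.8%) and 5 with the gene span alone (8 summits, background 9.39%). They also numbered 8 in the strongest regions of either replicate alone, where 21 summits were counted without replicate 2 and 22 without replicate 3, and the background was 38.2 to 39.3%. Among the 1632 strongest IDR peaks they numbered 5, with 10 summits (background 24.4%). Genes with a promoter summit numbered 7 to 8 with 1 replicate left out (background 14.1 to 15.0%) and 5 among the 1632 strongest peaks (background 8.28%). They numbered 5 within 250 bp (background 11.8%), 8 within 1000 bp (17.3%) and 5 at the outermost TSS alone (13.1%). Without replicate 2, CrebB gained a promoter summit. Windows with one of the 7 bZIP sites numbered 0 among those 1632, 0 with 50 bp on either side, 3 with 250 bp, and 0 to 1 with 1 replicate left out. The other settings tried, including the choice of overlap and Atf3 left out (15 summits, chosen after seeing the data), moved no value beyond its spread or a count by over 1.5 times. Depth is unknown and sets no limit that could be stated.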

Other observations

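The 8-mer AAATGTAT was in the windows of 5 of the 10 genes, at Atf-2, Atf3, CrebA, Irbp18 and REPTOR. It lay in 5.11% of all IDR windows and 2.45% of promoter windows. AAACAAAA was likewise at 5 genes, but lay in 8.12% of all IDR windows and 8.81% of promoter windows. Of 8-mers at 3 genes, GTCTGGAA, at Atf3, CrebB and REPTOR, lay in 0.429% of all IDR windows and 0.390% of promoter windows. CAACTACG, at Atf3, CrebB and cnc, lay in 0.521% and 0.379%, and AGTTGAGA, at CrebA, Irbp18 and REPTOR, in 0.490% and 0.727%. Genes are counted over all their windows, up to 6 for Atf3, whereas the shares are per window, so they cannot be set side by side. These were picked from the windows after they had been seen, and carry no test.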
